A study of Eptatretus atami with 13 samples.

Results

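In the hagfish organ series, the library labelled adipose tissue (the adipose-labelled library) was the nearest of all to brain, and the genes described here are those that nevertheless differed between them. A gene was taken when its level reached 5 FPKM (fragments per kilobase of exon and library size, here count × 1e9 over the library total and the exon length) in at least one of the 2 libraries and when the levels differed at least 2 times. Of 37562 gene models, 11821 reached 5 FPKM in one of the 2 libraries. Of these, 290 were at least 2 times higher in the library labelled adipose tissue and 221 were at least 2 times higher in brain, which is 2.45% and 1.87% of the genes at the level. The 511 genes were chosen by these values, so the ratios that chose them are given as a description, and their expression in the other 11 organs was not used to choose them.

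RNA was sequenced from 13 organs of the hagfish Eptatretus atami, with 1 library per organ. Besides adipose tissue and brain these were skeletal muscle, heart, blood cells, gills, kidney, skin, slime gland, intestine, liver, gall bladder and ovary. All samples are labelled WT, with total RNA as the molecule. The labels give every organ the cell type "Whole organism" and a treatment of normal embryonic development, which does not describe a dissected organ. The sources used here do not give age, sex or how many animals stand behind a library. With 1 library per organ no difference has a replicate check and no test between organs was made. The 95% intervals below are exact binomial intervals of the ratio of 2 counts and cover counting error only. The counts assigned to genes were 22235263 in the adipose-labelled library and 20805399 in brain, and ranged from 18800367 to 39077785 over the 13 libraries.

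As background, the vertebrate brain holds neurons, glia, ventricular ependyma, meninges and vessels, and its transcriptome is set apart from other organs by synaptic, cytoskeletal and ion channel genes and by transcription factors that keep regional identity. Adipocytes store triglyceride and are known in jawed vertebrates for lipid droplet, lipase and adipokine genes. In hagfish, slime glands in the body wall produce thread and mucus cells and the skin is covered by a mucous epidermis.

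The label of the first library was checked against marker genes. Of 9 adipocyte genes, 5 reached 5 FPKM, and none of them differed 2 times between the 2 libraries. ADIPOQ-1, the adipokine adiponectin, had 0.337 FPKM in the adipose-labelled library and 0.07201 FPKM in brain (10 and 2 counts), and its highest level was 3.43 FPKM in gills. LIPH, a member of the lipase family, had 0.292 FPKM in the adipose-labelled library against 0.144 FPKM in brain. ADRB3, the beta-3 adrenergic receptor of fat cells in mammals, had 1.22 FPKM in the adipose-labelled library against 1.12 FPKM in brain. GPD1, which makes glycerol-3-phosphate, had 62.1 FPKM in the adipose-labelled library against 48.5 FPKM in brain, and CAVIN1-2, a coat protein of caveolae, had 35.5 FPKM in the adipose-labelled library against 32.7 FPKM in brain. By contrast NEFM, a neurofilament of neurons, had 931 FPKM in the adipose-labelled library against 899 FPKM in brain, with no other organ above 3.92 FPKM. Among the other neuronal markers AVP was also high in the 2 libraries alone (85.2 against 102 FPKM). SYNPR-2 was lower there than in all 11 other organs, and SCN2A-2 had 0 counts in both. Over the 9 adipocyte genes the summed FPKM was 200 in the adipose-labelled library and 177 in brain. In the other organs it ran from 81.1 (kidney) to 1277 (skeletal muscle). The 5 genes at the level leaned to the adipose-labelled library, with a median log2 ratio of 0.28, without reaching 2-fold. Thus these few adipocyte genes did not set the library apart at 2-fold, and they do not settle its label. The low ADIPOQ-1 says little, since no organ exceeded 3.43 FPKM. The library is called by its label below only as a name.

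A set of 211 genes had a mean of at least 20 FPKM over the 2 libraries and at least 20 times the level of every other organ. Of these, 2 were at least 2 times higher in the adipose-labelled library and 0 were at least 2 times higher in brain, and the log2 ratios ran from -0.60 to 1.18 with a median of 0.08. The set was chosen in part by the mean of the 2 compared libraries. Few genes of such a level passed 2-fold in general. Where the higher level lay from 20 to 50 FPKM, 1.07% were higher in the adipose-labelled library and 0.817% in brain. No difference between the 2 libraries was tested, since each is 1 library. Over all genes at the level the log2 ratio had a median of 0.00 and quartiles of -0.20 and 0.22. A 2-fold difference in either direction was found for 4.32% of genes between these 2 libraries. The next closest pair of the 78 pairs was gall bladder and kidney, with 27.2%. Against the other 11 organs, the adipose-labelled library gave 45.0% to 91.1% and brain gave 44.3% to 91.9%. These shares are at column-total scaling and were not recomputed at another. The 10 highest genes held 67.8% of the counts in liver and 48.9% in skeletal muscle, against 3.99% in the adipose-labelled library and 3.96% in brain. How far this widened the shares was not tested.

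**Figure D1:**
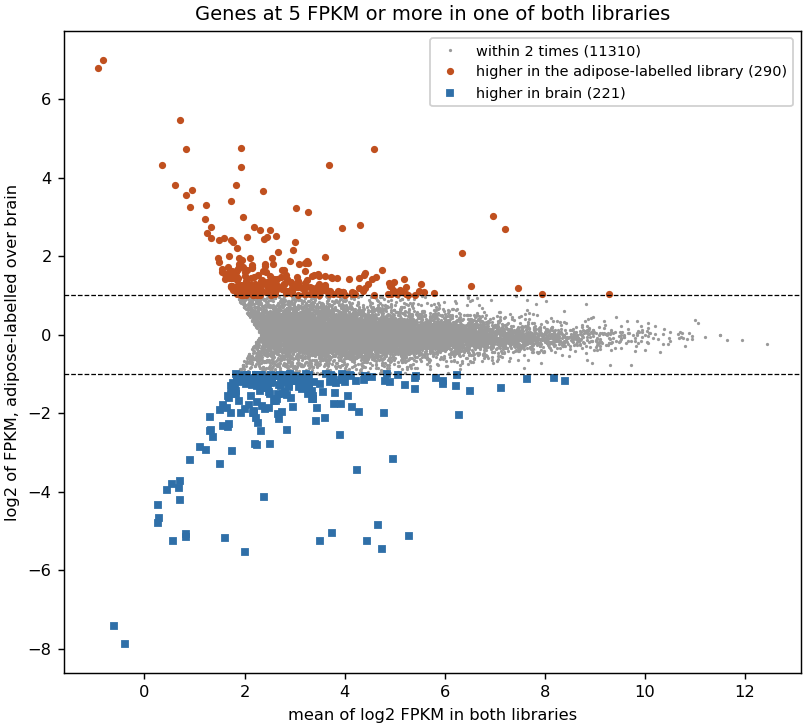
Each point is 1 of the 11821 genes at 5 FPKM or more in one of the 2 libraries, with the mean of its log2 FPKM on the horizontal axis and the log2 of FPKM in the adipose-labelled library over brain on the vertical axis. Levels under 0.05 FPKM are drawn at 0.05 FPKM, dashed lines mark 2-fold, and 290 genes lie above and 221 below them, most at low mean levels.

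Most of the 511 differences were small and in weakly expressed genes. The median fold was 2.42 among the genes higher in the adipose-labelled library and 2.498 among those higher in brain. A fold of at least 4 was reached by 43 genes of the first group and 50 of the second, and a fold of at least 10 by 13 and 21 genes. The counting interval of the ratio excluded 1 for 279 of the 290 genes and 218 of the 221 genes, and lay wholly past 2-fold for 98 and 84 genes. The genes were chosen by these same ratios, so the intervals give no independent support. Among the 11310 genes within 2 times the interval excluded 1 for 5385. Of the 2330 genes whose higher level lay between 5 and 10 FPKM, 6.05% were higher in the adipose-labelled library and 4.42% were higher in brain. Of the 1325 genes at 100 FPKM or more these shares were 0.604% and 0.906%.

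The strongest expression among genes higher in the adipose-labelled library came from EA02881 (chromosome 6, 124494293 to 124521547), with 896 FPKM in the adipose-labelled library against 436 FPKM in brain. This model had 8871 FPKM in intestine, and it was 2.05-fold higher (95% interval 2.0002 to 2.11). Next came a pair of long models on chromosome 5. EA28990 (chromosome 5, 24811748 to 25000271) had 375 FPKM in the adipose-labelled library against 57.7 FPKM in brain, and EA30388 (chromosome 5, 35635672 to 35786822) had 353 FPKM in the adipose-labelled library against 43.7 FPKM in brain. They were 6.51-fold higher (95% interval 6.26 to 6.77) and 8.09-fold higher (95% interval 7.78 to 8.41). Neither has a name in the sources used here.

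Both models had one pattern over the other organs, which they shared with EA32014 on chromosome 7. For EA30388 the level was 5132 FPKM in gall bladder, 2078 FPKM in ovary and 1249 FPKM in heart, against 4.41 FPKM in liver and 0.297 FPKM in blood cells. In blood cells EA28990 had 0.267 FPKM, against 4207 FPKM in gall bladder. EA32014, a single-exon model, had 39.6 FPKM in the adipose-labelled library against 6.07 FPKM in brain, 465 FPKM in gall bladder and 0 counts in blood cells. Among the genes at the level these 2 models, EA28990 and EA32014, were all that followed EA30388 with a Pearson correlation of at least 0.95 over the 11 other organs (on log2(FPKM + 1), r = 0.99 and 0.96), and both were higher in the adipose-labelled library. The correlation is a description over 11 libraries whose totals the models share.

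A larger group was expressed most in skin. EA61083 and its neighbour EA60259 (chromosome 4, 81428225 to 81471349) reached 57149 and 38105 FPKM in skin. EA61083 had 18.3 FPKM in the adipose-labelled library against 1.46 FPKM in brain and EA60259 had 12.5 FPKM in the adipose-labelled library against 1.98 FPKM in brain. A second neighbouring pair with the same pattern, EA20784 and EA18175 (chromosome 13, 75530877 to 75599630), had 6.42 and 12.9 FPKM in the adipose-labelled library, against 0.829 and 2.31 FPKM in brain. The 4 models had between 65.7 and 207 FPKM in gills and between 512 and 1162 FPKM in slime gland, so that both libraries were far below skin, gills and slime gland. EA61083 was 12.5-fold higher (95% interval 8.54 to 18.4). Of the 7 genes at the level that followed EA61083 over the 11 organs with r of at least 0.95, 4 were members and 3 were within 2 times, with a median log2 ratio of 2.10 over the 7. The 4 members reached 5 FPKM only in the adipose-labelled library, so this median is in part set by the level.

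Further skin models, EA61334 and EA81150, were more unequal than EA61083. EA61334 (chromosome 4, 157557367 to 157563370) had 9.17 FPKM in the adipose-labelled library against 0.349 FPKM in brain and 594 FPKM in skin. EA81150 (chromosome 17, 29865975 to 29932017) had 5.68 FPKM in the adipose-labelled library against 0.287 FPKM in brain and 344 FPKM in skin. They were 26.3-fold higher (95% interval 13.1 to 61.7) and 19.8-fold higher (95% interval 8.85 to 54.98). EA54586 (chosen after its values were seen) had 6.95 FPKM in the adipose-labelled library against 0.541 FPKM in brain, 542 FPKM in skin and at most 1.45 FPKM in any of the 10 remaining organs. EA57855, of all genes higher in the adipose-labelled library the highest in gills at 9451 FPKM, had 56.7 FPKM in the adipose-labelled library against 24.5 FPKM in brain and 26564 FPKM in skin. On chromosome 10 (47752481 to 48025775), 4 neighbouring models with high levels in gills, skin or gall bladder were also higher in the adipose-labelled library. One of them, EA11168, had 8.26 FPKM in the adipose-labelled library against 3.16 FPKM in brain, and 3097 FPKM in gall bladder. Of all genes higher in the adipose-labelled library, EA11168 also had the highest level in slime gland.

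Intestine and blood transcripts formed smaller groups. On chromosome 16 (7149523 to 7337551) 3 neighbouring models, EA07045, EA05479 and EA06233, had 1662, 1243 and 5697 FPKM in intestine. EA06233 had 28.7 FPKM in the adipose-labelled library against 3.27 FPKM in brain and was 8.76-fold higher (95% interval 5.98 to 12.8). On chromosome 17 (20811353 to 20859300) EA82480 and EA80301 had 12099.5 and 22174 FPKM in blood cells. EA82480 had 52.1 FPKM in the adipose-labelled library against 7.56 FPKM in brain, and EA80301 had 71.9 FPKM in the adipose-labelled library against 29.7 FPKM in brain. Of the 7 other genes at the level that followed EA82480 over the 11 organs with r of at least 0.95, EA80301 alone passed 2-fold, and the median log2 ratio of the 7 was 0.85.

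In a further group most models had their highest level of all 13 libraries in the adipose-labelled library. EA76293, a single-exon model on chromosome 3 (46442376 to 46442786), had 124 FPKM in the adipose-labelled library against 4.68 FPKM in brain. Gills were next with 30.7 FPKM, the other organs lay between 0.872 and 9.39 FPKM, and the model was 26.5-fold higher (95% interval 16.98 to 43.7) in the adipose-labelled library. It ends a row of 5 models within 46324133 to 46442786. In this row EA73340, EA78633 and EA75498 had 19.8, 25.1 and 10.9 FPKM in the adipose-labelled library, against 0.739, 2.67 and 0.245 FPKM in brain, with gills next in each. The fifth, EA73062, had 5.77 FPKM in the adipose-labelled library against 2.77 FPKM in brain and 35.5 FPKM in gills, and its counting interval included 1. Whether neighbouring models are pieces of one transcript was not tested.

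A second row on the same chromosome (123582893 to 123745512) held EA74323, EA78825 and EA76354, the last with 16.8 FPKM in the adipose-labelled library against 0.867 FPKM in brain and 10.1 FPKM in gills. EA62378 (chromosome 4, 176290840 to 176309377) had 57.05 FPKM in the adipose-labelled library against 2.88 FPKM in brain, and no other organ exceeded 11.8 FPKM. It was 19.8-fold higher (95% interval 13.2 to 31.2). EA20571 (chromosome 13, 56380310 to 56387161) had 13.2 FPKM in the adipose-labelled library against 0.949 FPKM in brain and 20.9 FPKM in skin. For a pair of models, chosen after their values were seen, brain had 0 counts. EA08260 had 6.32 FPKM from 70 counts in the adipose-labelled library, which is at least 21.8-fold higher than a floor of 3 counts in brain. EA12628 had 5.49 FPKM from 26 counts, at least 8.11-fold higher.

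**Figure D2:**
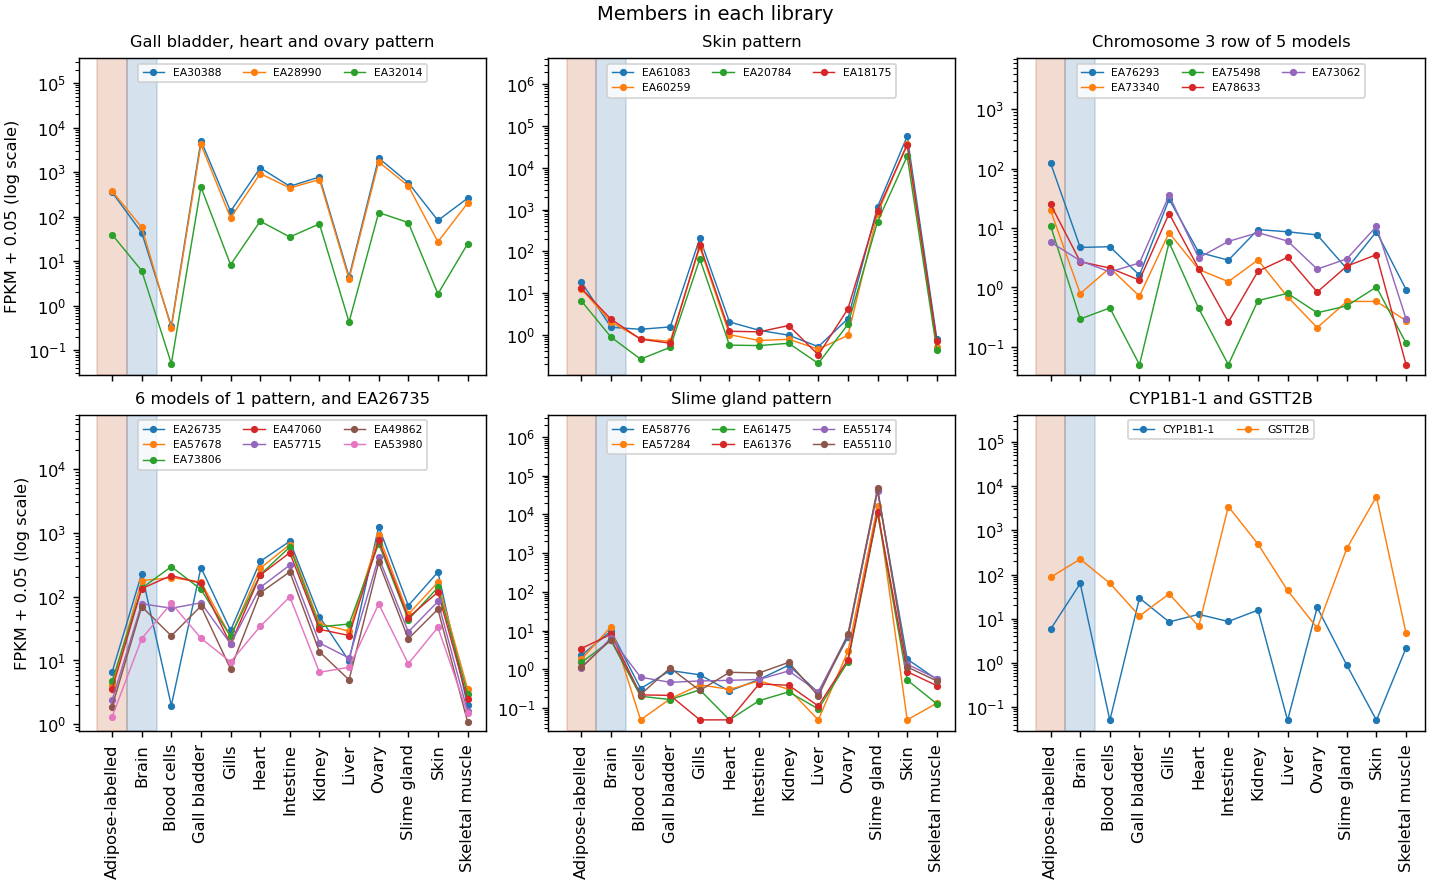
FPKM plus 0.05 on a log scale in each of the 13 libraries for 6 groups of genes, with the adipose-labelled library in the first shaded column and brain in the second, and 1 line per gene model. The upper panels hold genes higher in the adipose-labelled library and the lower panels genes higher in brain. Within a panel the lines mostly peak in the same organs. Exceptions are EA73062 with its peak in gills, EA53980 with its peak in intestine, and the pair CYP1B1-1 and GSTT2B. EA26735 departs from its panel by a low level in blood cells.

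Some genes were found in the 2 libraries and hardly elsewhere. Every other organ was under 0.2 of the higher level for 34 of the 290 genes higher in the adipose-labelled library (11.7%), 13 of the 221 genes higher in brain (5.88%) and 820 of the 11310 genes within 2 times (7.25%). Among the 34 are EA15433 and EA14932, neighbours on chromosome 11 (45056780 to 45138418), with 36.7 and 18.4 FPKM in the adipose-labelled library, against 12.4 and 7.99 FPKM in brain. EA55090 (chromosome 14) had 46.3 FPKM in the adipose-labelled library against 21.1 FPKM in brain and at most 1.45 FPKM in another organ. Among the 13, EA32290 (chromosome 7) had 28.9 FPKM in the adipose-labelled library against 62.7 FPKM in brain and 7.46 FPKM in kidney. EA06611 (chromosome 16) had 2.76 FPKM in the adipose-labelled library against 10.3 FPKM in brain and 0 counts in all 11 other organs. These 5 models were chosen after their values were seen. Genes found almost only in the 2 libraries thus differed in both directions.

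Symbols were at hand only for models on chromosome 1, and 20 of the 290 genes have one. The roles named here are those known from mammals. APP-2, the amyloid precursor protein, had 69.8 FPKM in the adipose-labelled library against 32.6 FPKM in brain. MSMO1, a sterol oxidase of cholesterol synthesis, had 51.2 FPKM in the adipose-labelled library against 24.2 FPKM in brain, the highest levels of the 13 libraries, with 11.9 FPKM in gall bladder next. CRIM1-3, a membrane protein that binds bone morphogenetic proteins, had 41.6 FPKM in the adipose-labelled library against 20.3 FPKM in brain. RAB29-2, a GTPase of vesicle traffic, had 34.6 FPKM in the adipose-labelled library against 14.1 FPKM in brain and 255 FPKM in ovary. PRSS16-1, a serine protease known from thymus, had 17.4 FPKM in the adipose-labelled library against 4.896 FPKM in brain and was 3.54-fold higher (95% interval 2.83 to 4.42).

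Matrix and epithelial genes were among the named members. FN1-4, a fibronectin, had 15.3 FPKM in the adipose-labelled library against 6.76 FPKM in brain and was highest in ovary with 139.9 FPKM. TGFB3-2, a transforming growth factor beta ligand, had 8.76 FPKM in the adipose-labelled library against 4.27 FPKM in brain, far under its 73.3 FPKM in blood cells and 72.7 FPKM in heart. KRT14-4, an epithelial keratin, had 7.5998 FPKM in the adipose-labelled library against 1.44 FPKM in brain and was 5.28-fold higher (95% interval 3.62 to 7.701). Its levels were 822 FPKM in gall bladder and 730.5 FPKM in ovary, against 10.8 FPKM in skin. GADD45A-1, induced by stress and DNA damage, had 11.99 FPKM in the adipose-labelled library against 4.16 FPKM in brain. PDK2-2, a kinase that restrains pyruvate dehydrogenase, had 7.57 FPKM in the adipose-labelled library against 2.73 FPKM in brain and 96.3 FPKM in gall bladder. RAPH1-1, an actin regulator of the cell edge, had 7.47 FPKM in the adipose-labelled library against 3.31 FPKM in brain.

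A pair of named genes had their highest level in the adipose-labelled library. MUSK, the receptor kinase of the nerve-muscle synapse, had 6.81 FPKM in the adipose-labelled library against 2.41 FPKM in brain, with 4.31 FPKM in intestine and 0.614 FPKM in skeletal muscle. ENKUR, a protein of motile cilia and sperm tails, had 6.49 FPKM in the adipose-labelled library against 2.05 FPKM in brain, with no other organ above 1.12 FPKM. They were 2.82-fold higher (95% interval 2.14 to 3.76) and 3.17-fold higher (95% interval 2.19 to 4.55). Other genes with a symbol, MXD1-1, MGAT2-1, STAT5B-2, TP53BP2-2, SNX18 and ARHGEF3-2, had between 5.63 and 7.11 FPKM in the adipose-labelled library, against 1.98 to 3.17 FPKM in brain.

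The other members with the highest levels in this direction were EA28313 (353 FPKM in the adipose-labelled library against 174 FPKM in brain), EA30192 (268 FPKM in the adipose-labelled library against 118 FPKM in brain), EA06822 (168 FPKM in the adipose-labelled library against 39.8 FPKM in brain) and EA66448 (141 FPKM in the adipose-labelled library against 59.5 FPKM in brain). Of these EA06822 (chromosome 16, 38362024 to 38367967) was the most unequal, 4.23-fold higher (95% interval 3.93 to 4.55), and its highest level elsewhere was 188 FPKM in skeletal muscle. EA05143, with the highest level of the group in skeletal muscle (568 FPKM), had 8.26 FPKM in the adipose-labelled library against 4.09 FPKM in brain, and its counting interval included 1.

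Among the genes higher in brain, 6 models with one pattern had wide gaps. EA57678 (chromosome 4, 150872261 to 150874453) had 4.05 FPKM in the adipose-labelled library against 178 FPKM in brain and was 44.1-fold higher in brain (95% interval 33.5 to 59.2). EA73806 (chromosome 3) had 4.696 FPKM in the adipose-labelled library against 136 FPKM in brain, EA57715 (chromosome 4) 2.34 against 77.4 FPKM, and EA53980 (chromosome 14) 1.26 against 21.95 FPKM. EA47060 and EA49862, neighbours on chromosome 9 (40320273 to 40471325), had 3.504 and 1.84 FPKM in the adipose-labelled library, against 134 and 69.7 FPKM in brain. Brain was 17.4 to 44.1 times higher over the 6 models.

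The 6 models were grouped by their likeness over the other organs. EA57678 had 916 FPKM in ovary, 656 FPKM in intestine and 278 FPKM in heart. Its level was 23.7 FPKM in gills and 3.54 FPKM in skeletal muscle, the only organ below the adipose-labelled library. The other 5 models were all of the genes at the level that followed EA57678 with r of at least 0.95 over the 11 organs (r from 0.953 to 0.997). All 5 were higher in brain, with a median log2 ratio of -5.05. They reached 5 FPKM only in brain of the 2 libraries, so their direction is in part set by the level. EA53980 was highest in intestine (99.3 FPKM, with 78.9 FPKM in blood cells and 76.9 FPKM in ovary), the others in ovary. A seventh model, EA26735 (chromosome 5, 98475682 to 98556344), is placed by the study's gene families with cd63 of gar, a tetraspanin of endosomes and secreted vesicles. It had 6.54 FPKM in the adipose-labelled library against 230.4 FPKM in brain and 1248 FPKM in ovary. It followed EA57678 with r = 0.76 over 11 organs and r = 0.98 over the 10 organs other than blood cells, where it had 1.91 FPKM. The models lie on 5 chromosomes, and the other 6 have no name in the sources used here.

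Slime gland transcripts made up a further group. On chromosome 4 (87544384 to 87652433) 4 neighbouring models, EA58776, EA61475, EA61376 and EA57284, had 10541 to 41259 FPKM in slime gland. They had 1.46 to 3.41 FPKM in the adipose-labelled library, against 5.55 to 12.5 FPKM in brain. On chromosome 14 (8591200 to 8652687) EA55174 and EA55110 had 1.04 and 1.08 FPKM in the adipose-labelled library, against 6.397 and 5.81 FPKM in brain. EA55110 is listed with the rod domain of intermediate filaments, the family from which the slime threads are built, and reached 46492 FPKM in slime gland, the highest level of any gene higher in brain there. It was 5.38-fold higher in brain (95% interval 2.89 to 9.99). EA82082 (chromosome 17, chosen after its values were seen) had 0.451 FPKM in the adipose-labelled library against 6.02 FPKM in brain and 28034 FPKM in slime gland.

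Single transcripts of other organs behaved in the same way. EA10718 (chromosome 10, 35644379 to 35698175) had 49444 FPKM in liver and under 1 FPKM in each of the 10 remaining organs, and it had 0.911 FPKM in the adipose-labelled library against 8.99 FPKM in brain. It was 9.87-fold higher in brain (95% interval 7.42 to 13.1). EA31441 (chromosome 7, 23025150 to 23028937), the member with the highest level in brain, had 227 FPKM in the adipose-labelled library against 509.9 FPKM in brain and 10899 FPKM in blood cells. EA80325 and EA81643, neighbours on chromosome 17 chosen after their values were seen, had 221 and 291 FPKM in blood cells, and 0.381 and 0.851 FPKM in the adipose-labelled library, against 7.06 and 6.495 FPKM in brain. Thus the blood-cell pair of chromosome 17 and EA82480 with EA80301, on the same chromosome, differed in opposite directions.

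EA31353 (chromosome 7, 42431296 to 42435712) had 0.509 FPKM in the adipose-labelled library against 18.4 FPKM in brain (9 and 305 counts), while every organ but skeletal muscle had at least 3.91 FPKM. EA74846 (chromosome 3, 179607296 to 179633539) had 0.588 FPKM in the adipose-labelled library against 27.3 FPKM in brain (4 and 174 counts) and 76.1 FPKM in gills. EA76199 on the same chromosome, chosen after its values were seen, had 0 counts in the adipose-labelled library and 11.7 FPKM from 67 counts in brain, at least 23.9-fold higher. EA45442, on chromosome 2 and chosen likewise, had 0 counts in the adipose-labelled library and 8.54 FPKM from 48 counts in brain, at least 17.1-fold higher. Further members with high levels in brain were EA16978 (197 FPKM in the adipose-labelled library, 425 FPKM in brain), EA19051 (135 and 299 FPKM), EA01982 (38.5 and 158 FPKM) and EA65893 (55.4 and 150.1 FPKM). Of the genes higher in brain, the one with the highest level in kidney, EA07866, had 2.93 FPKM in the adipose-labelled library against 6.4000 FPKM in brain and 532 FPKM in kidney.

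Of the 221 genes, 7 have a symbol. CYP1B1-1, a cytochrome P450 that hydroxylates steroids and retinoids in mammals, stood apart with 5.74 FPKM in the adipose-labelled library against 62.7 FPKM in brain, the highest level of all libraries. It was 10.9-fold higher in brain (95% interval 9.25 to 12.99), and gall bladder followed with 29.3 FPKM, while blood cells, liver and skin had 0 counts. GSTT2B, a glutathione transferase, had 86.7 FPKM in the adipose-labelled library against 224 FPKM in brain and was far higher in skin (5821 FPKM) and intestine (3476 FPKM). PDE6H, the inhibitory subunit of the cone phosphodiesterase, had 3.46 FPKM in the adipose-labelled library against 11.1 FPKM in brain (18 and 54 counts) and 11.4 FPKM in ovary. TRIM21 and TRIM25-4, ubiquitin ligases of antiviral defence, had 1.85 and 3.22 FPKM in the adipose-labelled library, against 5.44 and 7.005 FPKM in brain. INPPL1-1, a phosphoinositide phosphatase, had 3.31 FPKM in the adipose-labelled library against 6.699 FPKM in brain, and AQR-2, a helicase of the spliceosome, had 5.31 FPKM in the adipose-labelled library against 10.7 FPKM in brain.

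Besides EA26735, 4 more of the 221 have a family name through the study's gene families, taken from chicken or gar, and were named after their values were seen. EA28642, in the family of the kinetochore protein SPC25, had 2.15 FPKM in the adipose-labelled library against 11.8 FPKM in brain and was 5.48-fold higher in brain (95% interval 3.96 to 7.77). EA15240, in a family of the inhibitory SMAD6 and SMAD7 proteins, had 14.1 FPKM in the adipose-labelled library against 31.4 FPKM in brain. EA44893, in the family of the homeobox gene HHEX, had 2.91 FPKM in the adipose-labelled library against 5.96 FPKM in brain and 76.3 FPKM in blood cells. EA10161, in a family known in gar only by a clone name, had 3.33 FPKM in the adipose-labelled library against 6.86 FPKM in brain.

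In 16 lists of genes with a symbol, few members passed 2-fold. None of the 29 neuronal and synaptic genes at the level (of 54) differed 2 times in either direction, and their log2 ratios ran from -0.40 to 0.92 with a median of 0.04, against 0.00 over all genes at the level. At the upper end CNTN2-1, an axonal adhesion molecule, had 37.7 FPKM in the adipose-labelled library against 20.2 FPKM in brain, and LSAMP-4, a neural adhesion molecule, had 57.8 FPKM in the adipose-labelled library against 30.6 FPKM in brain. The synaptic genes SYNPR-2 and RAB3A-2 had 23.7 and 33.9 FPKM in the adipose-labelled library, against 22.8 and 44.5 FPKM in brain. SYNPR-2 was higher in all 11 other organs, from 24.7 FPKM in liver to 129 FPKM in kidney. RAB3A-2 reached 124 FPKM in gills. UNC80-1, of a sodium leak channel, had 32.4 against 38.9 FPKM, with 19.7 FPKM in heart next. Over the 54 genes the summed FPKM was 5179 and 5388, against 161 (skeletal muscle) to 3585 (gall bladder) in the other organs. SCN2A-2, a sodium channel model, had 0 counts in both.

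Regional patterning genes are expressed in restricted domains along the brain and spinal cord, so their levels were set side by side. Of the 14 anterior genes 8 reached the level and none differed 2 times (median log2 0.06). SP9-3 had 75.01 FPKM in the adipose-labelled library against 64.2 FPKM in brain, LMO1-1 had 68.2 against 59.3 FPKM, SOX14-1 had 38.6 against 36.2 FPKM, SP8 had 30.6 against 34.9 FPKM and LHX9 had 16.6 against 21.3 FPKM. NPAS3-4 had 21.9 against 19.7 FPKM. The forebrain factors SIX3-2 and TBR1-1 had 4.62 and 3.74 FPKM in the adipose-labelled library, against 5.94 and 2.497 FPKM in brain. SATB1, GSC-1, NPAS3-5 and FOXE1 had 0 to 2.41 FPKM in the adipose-labelled library, against 0 to 1.29 FPKM in brain.

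Of the 12 HOX genes, which mark the hindbrain and trunk, 4 reached the level and none differed 2 times (median log2 -0.18). HOXD4 had 17.7 FPKM in the adipose-labelled library against 19.99 FPKM in brain, HOXB5-2 had 12.98 against 15.96 FPKM, HOXD3-2 had 10.9 against 12.3 FPKM and HOXA2-2 had 5.73 against 5.54 FPKM. HOXB7-1 had 4.49 against 4.18 FPKM, HOXB8-2 2.22 against 1.17 FPKM and HOXC6-2 1.88 against 1.296 FPKM. The posterior genes HOXC9-2, HOXD11 and HOXC13-2 had 0.685, 0 and 0.0996 FPKM in the adipose-labelled library, against 0.418, 0.0843 and 0 FPKM in brain, HOXB8-3 had 0.0545 against 0 FPKM, and HOXC9-1 had 0 counts in both. The anterior and HOX genes at the level were thus found in both libraries at similar levels. The HOX genes were not particular to the 2 libraries. Their summed FPKM was 56.7 in the adipose-labelled library and 60.9 in brain, against 76.4 in kidney and 61.4 in slime gland. For the 14 anterior genes the sums were 272 and 255, with 94.5 in gall bladder as the highest of the other organs. Among these SP8 reached 5 FPKM in all 11 other organs.

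Of the 9 neuroendocrine genes 4 reached the level and none differed 2 times. AVP, the vasopressin-family hormone of the hypothalamus, had 85.2 FPKM in the adipose-labelled library against 102 FPKM in brain, with no other organ above 5.35 FPKM. NUCB2, the nesfatin precursor, had 192 against 183 FPKM, WFS1-1 had 23.9 against 20.3 FPKM, and the receptor gene GPR173-3 had 16.3 against 19.6 FPKM. PRLHR, CALCRL-3, TSHR-2, INHBB-2 and ARTN-1 had 0.403 to 3.596 FPKM in the adipose-labelled library, against 0.447 to 3.101 FPKM in brain.

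The adipocyte list had the highest median of the lists in which no gene passed 2-fold, a log2 ratio of 0.28 over 5 genes. LMF1, which matures lipases, had 24.1 FPKM in the adipose-labelled library against 16.99 FPKM in brain. GPAT4, of glycerolipid synthesis, had 60.2 against 61.8 FPKM, and ADIPOR2, an adiponectin receptor, had 13.95 against 11.5 FPKM. In the lipid metabolism list 17 of 20 genes reached the level, with a median log2 ratio of 0.05, and MSMO1 was the only member past 2-fold. HMGCS1, an earlier enzyme of the same sterol pathway, had 81.5 FPKM in the adipose-labelled library against 70.6 FPKM in brain, and FAXDC2, a related hydroxylase, had 343 against 270.4 FPKM.

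Lists for other cell types held the remaining named members. Of 14 connective tissue genes at the level (of 28), FN1-4 and TGFB3-2 were higher in the adipose-labelled library and CYP1B1-1 was higher in brain, with a median log2 ratio of 0.07. Over all 28 genes the summed FPKM was 659 in the adipose-labelled library and 662 in brain, with 123 (skeletal muscle) to 2070.2 (ovary) in the other organs. The fibroblast markers DCN and DPT-1 had 1.77 and 1.54 FPKM in the adipose-labelled library, against 4.07 and 0.2898 FPKM in brain, while the basement membrane gene NID2 had 159 against 167 FPKM and the secreted FSTL1 had 113 against 111 FPKM. SFRP5-1, a secreted WNT antagonist, had 4.43 against 8.36 FPKM, just under 2-fold. Of 15 blood, immune and endothelial genes at the level (of 20), TRIM21 was higher in brain (median 0.12). KLF2-1, an endothelial factor, had 6.02 against 11.7 FPKM, and S1PR3-1, a sphingosine phosphate receptor, had 41.4 against 22.6 FPKM. Of 5 cilium genes (of 18) ENKUR, of 9 stress genes (of 12) GADD45A-1, of 3 muscle genes (of 18) MUSK and the one keratin at the level (of 15), KRT14-4, were higher in the adipose-labelled library. Of 2 photoreceptor and pigment genes at the level (of 8), PDE6H was higher in brain. In the lists for cell cycle (10 of 18, median 0.02), for ribosome, proteasome and respiration (15 of 17, median -0.06) and for liver, intestine and kidney (2 of 15, median -0.48), no gene passed 2-fold. The lists hold only chromosome 1 models, and each count is to be read beside the 4.32% of all genes that passed 2-fold. Genes of these lists that are given with values although they lay within 2-fold were, except in the adipocyte, patterning and neuroendocrine lists, chosen after their values were seen.

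**Figure D3:**
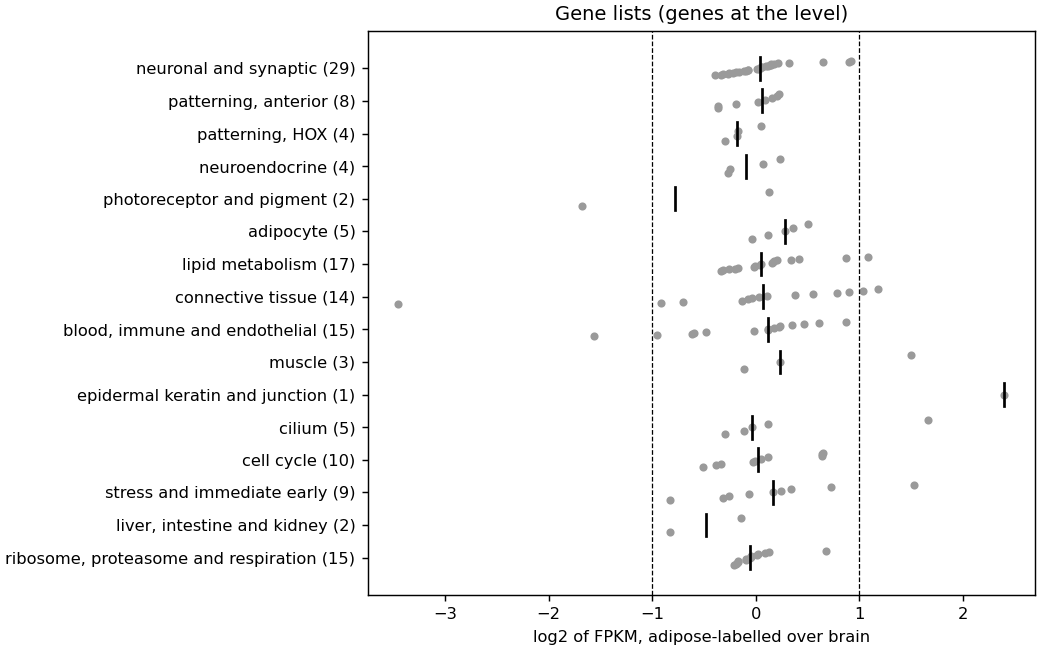
Each point is 1 gene of a list at 5 FPKM or more in one of the 2 libraries, placed by the log2 of FPKM in the adipose-labelled library over brain, with the number of such genes after the list's name. Black bars are medians, dashed lines mark 2-fold, and the neuronal, patterning, HOX and neuroendocrine genes all lie between them.

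The organs in which the 511 genes were otherwise highest are given as shares, with no test between the groups. At column-total scaling, the highest of the other 11 organs was most often gills for genes higher in the adipose-labelled library (21.4%), then ovary (16.2%) and skin (14.5%). For genes higher in brain it was ovary (26.7%), gills (19.5%) and blood cells (14.5%), and for the 11310 genes within 2 times it was ovary (34.01%), gills (17.2%) and blood cells (12.2%). Skin was thus the highest other organ for 14.5% of genes higher in the adipose-labelled library, against 3.62% of those higher in brain and 2.72% of the rest. The leading organ depended on the scaling. The members were also kept with organ values scaled by edgeR's TMM factors (chosen after seeing the data). Slime gland then led for genes higher in the adipose-labelled library (20.3%), against 9.05% of those higher in brain and 6.67% of the rest. Blood cells led for genes higher in brain (14.5%), near their 15.2% of the rest. Skin still took 14.8% of the first group, 4.07% of the second and 5.04% of the rest.

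**Figure D4:**
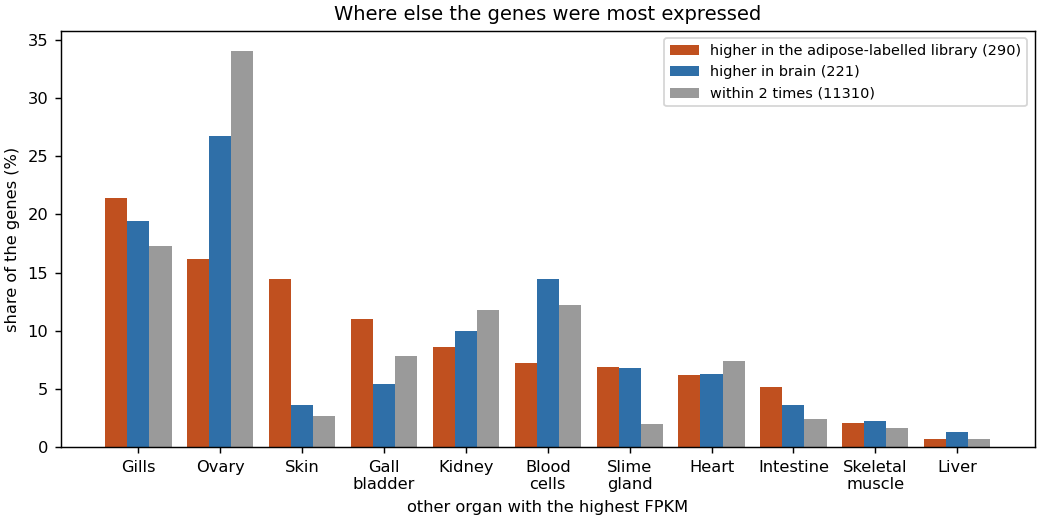
Bars give, for each of the 11 other organs, the share of genes whose highest level outside the 2 libraries was in that organ at column-total scaling, for the 290 genes higher in the adipose-labelled library, the 221 genes higher in brain and the 11310 genes within 2 times. Skin takes 14.5%, 3.62% and 2.72% of the 3 groups.

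No other organ reached 5 FPKM for 73 of the 290 genes (25.2%) and 27 of the 221 genes (12.2%), compared with 8.302% of genes within 2 times. All 11 organs reached it for 9 and 15 genes (3.103% and 6.79%), compared with 26.7%. At the other end, some organ was at least 10 times above both libraries for 46 genes higher in the adipose-labelled library (15.9%) and 39 genes higher in brain (17.6%), compared with 3.66% of the rest. Transcripts that another organ held in large excess thus made up a larger share of the members than of the rest. The groups were not matched for level. The median FPKM in the higher library was 10.3 and 10.7 for the members, against 23.1 for the rest. Of the 46, 15 were highest in skin, 10 in gall bladder, 8 in gills, 5 each in blood cells and intestine, and 0 in slime gland. Of the 39, 10 were highest in blood cells, 8 in slime gland, 7 in gills, 4 each in kidney and ovary, and 1 in skin.

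The same genes can be read by organ. Of 44 genes at the level that were at least 10 times higher in skin than in both libraries, 15 were higher in the adipose-labelled library and 1 was higher in brain. Of 22 such slime gland genes, 0 were higher in the adipose-labelled library and 8 were higher in brain. Of 38 such gall bladder genes the numbers were 10 and 2, of 66 blood cell genes 5 and 10, and of 44 heart genes 0 and 0. These counts rest on few genes, several of them neighbours. A weak transcript entered them only through the library in which it reached 5 FPKM. Genes under 5 FPKM in both libraries, which could lean either way, were left out. The numbers are thus in part set by the level and are given as a description.

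Gene sets restricted to a single other organ were defined without either library, as genes at 20 FPKM or more in that organ and at least 20 times every one of the 10 remaining organs. Genes high in the 2 libraries themselves were therefore not kept out, and some were higher there than in the named organ. The 32 skin genes summed to 193 CPM (counts scaled to 1e6 per library) in the adipose-labelled library and 40.9 CPM in brain, a ratio of 4.72 (95% interval 4.24 to 5.24), compared with 329023 CPM in skin. Of the 32, 28 had a larger share in the adipose-labelled library and 3 in brain. By number of genes the kidney, liver and heart sets leaned the same way, although their summed levels hardly differed. Without EA61083, which held 19.03% of the counts, the ratio was 4.11. The 54 intestine genes had 123 CPM in the adipose-labelled library and 61.8 CPM in brain, a ratio of 1.98 (95% interval 1.805 to 2.18). Of these, 33 had a larger share in the adipose-labelled library and 15 in brain, and without EA83254 the ratio was 2.15. The neighbours EA06233, EA07045 and EA05479 had 590, 283 and 93 of the 2726 counts in the adipose-labelled library. In brain they had 63, 25 and 13 of 1286, so 1 row of chromosome 16 raised the ratio. The 17 blood cell genes had 641 and 377 CPM, a ratio of 1.7004 (95% interval 1.64 to 1.77). By number of genes, 11 had a larger share in the adipose-labelled library and 6 in brain. Without EA81038, which held 31.2% of the counts, the ratio was 1.83. EA81038 (4447 and 2822 counts), EA80904 (3722 and 1931) and EA81485 (2880 and 1363) held most of the set's 14249 and 7841 counts. The ratio thus describes a few abundant genes, and the weaker genes differed in both directions.

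For slime gland the summed level was higher in brain. Its 84 genes had 399 CPM in the adipose-labelled library and 489 CPM in brain, a ratio of 0.815 (95% interval 0.783 to 0.849). Of these, 24 had a larger share in the adipose-labelled library and 48 in brain, and without the most abundant gene, EA57401, the ratio was 0.708. The ratio was 0.999 (95% interval 0.971 to 1.03) for the heart set, 1.01 (95% interval 0.971 to 1.04) for kidney and 1.03 (95% interval 0.973 to 1.09) for liver, with intervals that included 1. Of the 64 liver genes 38 had a larger share in the adipose-labelled library and 17 in brain, and without EA19289 the liver ratio turned to 0.833. Of the 36 kidney genes 27 had a larger share in the adipose-labelled library and 5 in brain, and of the 36 heart genes 19 and 11. The heart ratio was 0.9498 without EA04438 and the kidney ratio 0.996 without EA35884. In each set the gene left out was the one with the most counts in the adipose-labelled library. Other genes pulled toward brain. EA10718 held 111 of the liver set's 5063 counts in the adipose-labelled library and 1025 of its 4600 in brain. EA38882 held 2195 of 13148 and 3184 of 12240 in the kidney set. Leaving out either would raise its set's ratio, by an amount that was not computed. The 139 ovary genes had a ratio of 0.9604 (95% interval 0.946 to 0.976), with 45 larger in the adipose-labelled library and 74 in brain. Without EA72406, which held 52.3% of the ovary set's counts in the adipose-labelled library, the ratio was 0.988. EA72406 had 715 FPKM in the adipose-labelled library and 764 FPKM in brain, against 106 FPKM in ovary. In the same set EA05180 (228 and 211 FPKM) and EA85589 (182 and 187 FPKM) were also above ovary (100 and 98 FPKM). EA48434 of the slime gland set had 31.7 and 44.7 FPKM, against 28.6 FPKM in slime gland. The 37 gill genes had a ratio of 1.26 (95% interval 1.17 to 1.34). The 6 skeletal muscle genes had 1.19 (95% interval 1.15 to 1.23), which became 0.963 without EA32330 with its 93.8% of their counts. The 3 gall bladder genes had 1.24 (95% interval 0.855 to 1.83), which became 1.65 without EA51249. The summed levels thus do not measure transcripts of the named organ alone. Fewer cells of a type and less RNA per cell cannot be told apart in such libraries, and how these transcripts came to be in either library was not tested.

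**Figure D5:**
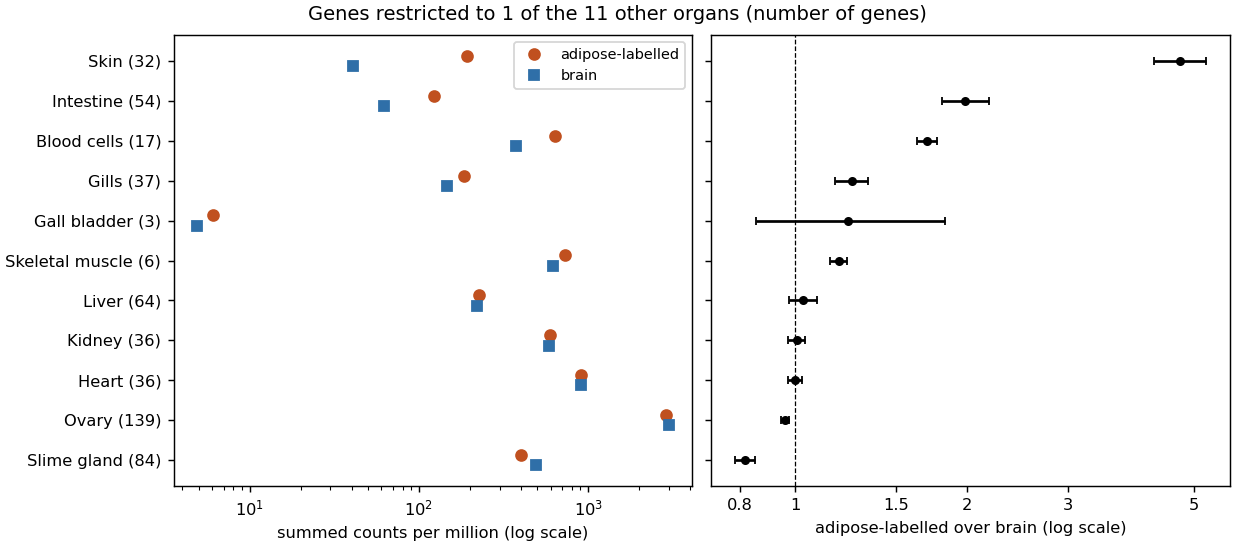
Each set holds genes restricted to 1 organ among the 11 other organs, chosen without the 2 libraries, and is named with its number of genes. Genes high in the 2 libraries themselves were not kept out of the sets. The left panel gives the summed CPM in the adipose-labelled library (circles) and brain (squares) on a log scale. The right panel gives their ratio with its 95% counting interval. Skin lies highest at 4.72, intestine and blood cells follow at 1.98 and 1.70, and slime gland lies lowest at 0.815. A few genes held most of the counts of the blood cell set.

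Close to the 2-fold line membership was a matter of small differences. Just inside it, EA04507 had 11.96 FPKM in the adipose-labelled library against 5.97 FPKM in brain, EA51581 had 54.2 against 27.01 FPKM and EA67396 had 22.9 against 11.3 FPKM, while EA61335, EA05891 and EA07115 had 8.699, 10.9 and 6.57 FPKM in the adipose-labelled library, against 17.4, 21.8 and 13.2 FPKM in brain. Just outside it, EA48378, EA24243 and EA64359 had 5.54, 8.18 and 5.89 FPKM in the adipose-labelled library, against 2.77, 4.09 and 2.95 FPKM in brain. On the brain side EA33419, EA52492 and EA71521 had 4.71, 2.89 and 7.96 FPKM in the adipose-labelled library, against 9.41, 5.76 and 15.8 FPKM in brain.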

How the data were processed

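Total RNA of 13 hagfish organs was extracted with Trizol and made into strand-specific libraries (TruSeq) that were sequenced as paired ends, with 1 library per organ. The authors aligned reads with STAR (2.5.2b) and deposited raw counts per gene model from featureCounts (1.6.1), both named in the submitters' processing notes. Per the file headers, exons were counted by gene identifier with the annotation Pata_ah2p and neither a paired nor a strand option was set, so that both ends of a pair can count and antisense models cannot be told apart. Multi-mapping reads are left out by that program's default, which lowers near-identical copies. The exon length deposited beside the counts is another measure, in bases. Coordinates are those of the deposited table, on the study's own assembly.

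FPKM was computed as count × 1e9 over the library's assigned total and the exon length. Ratios carry 95% Clopper-Pearson intervals of the 2 libraries' counts, taken on pairs of read ends because most low counts were even. They cover counting error only, and reads are not independent molecules. No test between organs was possible with 1 library each. For folds against a library at 0 counts, a floor of 3 counts in that library was used. Likeness of pattern was Pearson's r over the 11 other organs on log2(FPKM + 1) among genes at the level that also reached 5 FPKM in another organ, and neighbours lie within 200 kb. Scripts ran in Python 3.11.15 (NumPy 2.4.6, pandas 2.3.3, SciPy 1.17.1, Matplotlib 3.10.9) and R 4.3.3, which gave edgeR 4.0.16 TMM and DESeq2 1.42.0 size factors as alternative scalings only, and were tested on simulated data.

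The members and the 16 gene lists were chosen with earlier results of these data known, among them a source table of the study that held maxima of these libraries. Symbols come from the study's annotation of 1045 models, all on chromosome 1. The text names in each direction the 8 members with the highest FPKM, the 8 with the largest ratio at 100 counts or more in the higher library, the 12 highest with a symbol, every member in a list, the member highest in each of the 11 other organs and the 3 nearest to the fold threshold on either side, and all adipocyte, HOX, anterior patterning and neuroendocrine genes. A few genes that this rule names are not reported here. Models named beside these for a neighbouring position or a like pattern were chosen after their values were seen. Alternatives were other scalings, levels of 1 and 10 FPKM, a fold of 3 and 1 FPKM added to both libraries.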

Additional observations from a re-analysis of the deposited data

How the results depend on the processing

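The count of genes higher in the adipose-labelled library was 290 at column totals, 170 with edgeR's TMM factors, 181 with DESeq2 size factors, 1073 at a level of 1 FPKM, 149 at 10 FPKM and 82 at a fold of 3. Genes higher in brain numbered 221 at column totals, 160 with TMM, 151 with DESeq2, 732 at 1 FPKM, 118 at 10 FPKM and 80 at a fold of 3. Of all genes past 2-fold, 56.8% were higher in the adipose-labelled library at column totals, 51.5% with TMM and 54.5% with DESeq2. TMM and DESeq2 factors also raise the level that 5 FPKM stands for in both libraries. The median log2 ratio over genes at the level was -0.037 with TMM, -0.020 with DESeq2, 0.024 at 1 FPKM and -0.012 at 10 FPKM. The share of genes higher in the adipose-labelled library with no other organ at the level was 18.8% with TMM, 16.6% with DESeq2 and 19.01% at 1 FPKM. Gills were the highest other organ for 10% of that group with TMM and 11.05% with DESeq2. The commonest organ became slime gland with TMM (19.4%) and with DESeq2 (18.8%), and skin without the 10 highest genes of each library (19.9%). Ovary was the highest other organ of genes higher in brain for 13.8% with TMM, 12.6% with DESeq2 and 20.9% without the 10 highest genes, and the commonest became gills with DESeq2 (13.2%) and at a fold of 3 (25%). The ratio of the ovary set was 0.942 with TMM. The cause of these shifts was not tested. The median of the keratin list, 2.40 from its 1 gene at the level, was -0.37 at 1 FPKM, where more of its genes enter, and that of the liver, intestine and kidney list was -0.05. At 1 FPKM the medians of the HOX (0.05), neuroendocrine (0.05), photoreceptor (0.13) and cilium (0.04) lists also changed sign, as did that of the cell cycle list with TMM (-0.04) and DESeq2 (-0.02).

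Adding 1 FPKM to both libraries moved the keratin median to 1.82. The organ sets were not recomputed at other levels or folds, and list medians not at a fold of 3. No paired analysis was possible because each organ has 1 library, and for the same reason no library could be left out. Depth limits the weakest members, whose higher library held as few as 26 counts.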

Other observations

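Of the 290 genes higher in the adipose-labelled library, 62 (21.4%) stood in 26 rows of members within 200 kb of each other, the longest with 5 models, and in 13 of the rows all models had the same highest other organ. Of the 221 genes higher in brain, 42 (19%) stood in 20 rows, the longest with 4 models, and 13 rows shared the highest organ. Measured the same way, 6.51% of the 11310 genes within 2 times had a gene higher in the adipose-labelled library within 200 kb and 5.69% had a gene higher in brain. Genes in a row are not independent of each other where models are pieces of a transcript or copies of a gene.

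The members were shorter models than the rest. Median exon length was 1092 bases for genes higher in the adipose-labelled library, 975 bases for genes higher in brain and 1611 bases for genes within 2 times, with 6, 5 and 9 exons. Single-exon models made up 9.31%, 6.79% and 3.59% of the 3 groups. The median FPKM in the higher library was 10.3, 10.7 and 23.1, so that length and level moved with membership, and their part in it was not tested.

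By chromosome, the share of genes at the level that were higher in the adipose-labelled library ran from 1.02% on chromosome 12 (6 of 590) to 3.65% on chromosome 13 (24 of 657), beside 2.45% in all. The share higher in brain ran from 1.02% on chromosome 9 (7 of 683) to 2.85% on chromosome 16 (13 of 456), beside 1.87% in all. Of the 67 genes at the level on unplaced scaffolds, 7 were higher in the adipose-labelled library and 4 were higher in brain.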
